A study of Mus musculus with 9 samples.

Results

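Acute phase proteins are plasma proteins whose synthesis by the liver changes during inflammation. The genes described here are the 10 with the symbols Saa1, Saa2, Saa3, Saa4, Orm1, Orm2, Orm3, Lcn2, Hp and Apcs, out of 17846 genes listed in each liver. They were chosen by name, with earlier results of these data known. All 10 passed the filter on low counts, which left 13619 genes for testing. The livers came from 9 male wild-type (WT) mice of the C57/BL strain (C57BL/6 in the study's methods), with 3 mice in each of 3 groups and 1 RNA sequencing library per mouse. Control mice ate a normal diet. NASH mice stayed sedentary on the Ath diet, an atherogenic diet with added cholesterol and cholate that is used as a model of non-alcoholic steatohepatitis, for 20 weeks. NASH+Exercise mice ate the same diet and, after 12 weeks of it, were trained on a treadmill for 8 weeks, starting at 20 weeks of age. All groups were fasted overnight before the livers were taken, so no liver shows the fed state, and the diet differs from chow in more than 1 component. Mice are named by group and replicate number.

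In the acute phase response, interleukin-6 acting through gp130 and STAT3, together with interleukin-1 and tumour necrosis factor acting through NF-kB and factors of the C/EBP family, switches hepatocytes to the production of defence proteins. Serum amyloid A (SAA) proteins bind to high density lipoprotein, orosomucoids (ORM, alpha-1-acid glycoproteins) bind drugs and small lipids, haptoglobin (HP) captures free haemoglobin, lipocalin-2 (LCN2) binds the iron carriers that bacteria release, and serum amyloid P (APCS) is a pentraxin that coats debris and amyloid. In mice, serum amyloid P takes the place that C-reactive protein has in humans as a strongly inducible pentraxin.

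Per the annotation of GRCm38.p6, all 10 genes are protein coding. The 4 Saa genes form a cluster on chromosome 7, with Saa3 (Entrez Gene 20210) at 46711998 to 46719615, Saa4 (20211) at 46727992 to 46732603, Saa1 (20208) at 46740497 to 46743181 and Saa2 (20209) at 46751833 to 46754313. The 3 Orm genes are neighbours on chromosome 4, with Orm1 (18405) at 63344556 to 63348163, Orm3 (18407) at 63356069 to 63359506 and Orm2 (18406) at 63362449 to 63365877. Lcn2 (16819) lies on chromosome 2 at 32384637 to 32387739, Hp (15439) on chromosome 8 at 109575128 to 109579172 and Apcs (20219) on chromosome 1 at 172893961 to 172895054. Some of these genes are similar copies of each other. The spliced transcripts of Saa1 and Saa2 were 93.9% identical, those of Orm1 and Orm2 91.0%, and those of Orm3 86.4% with Orm1 and 88.3% with Orm2. Stretches of 50 bases found unchanged in another of the 10 genes made up 14.8% of those in Saa1, 11.2% in Saa2, 20.4% in Orm1, 21.8% in Orm2 and 3.59% in Orm3, against 0% in Saa4, Lcn2, Hp and Apcs. Reads from the shared stretches were divided between the copies by estimation, so the split within Saa1 and Saa2 and within the Orm genes is uncertain, and sums over the copies are given as well.

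Promoter windows from RefSeq (GRCm38.p6), from 250 bases before the start site to 50 after it, matched 8 of the 10 genes. Those of the related pairs Saa1 and Saa2, and Orm2 and Orm3, are shown because the copies can be compared base by base. The window of Lcn2 is shown for the largest change with the diet, that of Saa4 for the member whose level in Control was highest among the Saa genes, and that of Apcs for the absence of the motif shared by the other 7. Each runs 5′ to 3′ on the strand of the gene. Capitals mark matches to TTGCNNAA, a core recognised by C/EBP factors, to TTCNNNGAA, a STAT core, or to CTGGGAA, the core of the type II interleukin-6 response element, each searched on both strands.
Saa1, chr7:46742931-46743230, minus strand: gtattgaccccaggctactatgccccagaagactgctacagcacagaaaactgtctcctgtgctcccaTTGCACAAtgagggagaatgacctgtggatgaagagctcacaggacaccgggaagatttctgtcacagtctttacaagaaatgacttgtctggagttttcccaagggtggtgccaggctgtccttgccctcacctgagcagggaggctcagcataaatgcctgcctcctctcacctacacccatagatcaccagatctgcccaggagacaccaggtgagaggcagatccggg
Saa2, chr7:46751583-46751882, plus strand: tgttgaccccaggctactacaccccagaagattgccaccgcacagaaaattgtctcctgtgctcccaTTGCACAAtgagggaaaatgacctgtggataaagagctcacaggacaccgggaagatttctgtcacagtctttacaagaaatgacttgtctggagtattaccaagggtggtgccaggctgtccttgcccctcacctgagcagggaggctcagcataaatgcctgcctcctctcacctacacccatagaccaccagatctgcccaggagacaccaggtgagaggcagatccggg
Orm2, chr4:63362199-63362498, plus strand: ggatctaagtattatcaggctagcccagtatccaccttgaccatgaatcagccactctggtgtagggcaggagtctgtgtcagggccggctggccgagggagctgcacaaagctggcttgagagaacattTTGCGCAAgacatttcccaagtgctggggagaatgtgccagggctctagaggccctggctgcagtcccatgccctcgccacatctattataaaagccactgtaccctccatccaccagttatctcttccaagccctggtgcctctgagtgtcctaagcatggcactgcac
Orm3, chr4:63355908-63356207, plus strand: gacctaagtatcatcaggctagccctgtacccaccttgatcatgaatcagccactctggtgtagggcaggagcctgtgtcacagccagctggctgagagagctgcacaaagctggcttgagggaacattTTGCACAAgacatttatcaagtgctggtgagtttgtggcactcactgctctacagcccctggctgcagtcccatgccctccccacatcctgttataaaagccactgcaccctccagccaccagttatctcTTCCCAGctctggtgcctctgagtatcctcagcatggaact
Lcn2, chr2:32387690-32387989, minus strand: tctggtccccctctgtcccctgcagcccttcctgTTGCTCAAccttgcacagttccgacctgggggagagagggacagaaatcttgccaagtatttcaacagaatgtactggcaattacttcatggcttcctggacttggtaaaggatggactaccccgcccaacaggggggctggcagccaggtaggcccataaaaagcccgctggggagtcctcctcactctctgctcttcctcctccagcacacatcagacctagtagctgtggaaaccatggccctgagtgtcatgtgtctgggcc
Saa4, chr7:46732554-46732853, minus strand: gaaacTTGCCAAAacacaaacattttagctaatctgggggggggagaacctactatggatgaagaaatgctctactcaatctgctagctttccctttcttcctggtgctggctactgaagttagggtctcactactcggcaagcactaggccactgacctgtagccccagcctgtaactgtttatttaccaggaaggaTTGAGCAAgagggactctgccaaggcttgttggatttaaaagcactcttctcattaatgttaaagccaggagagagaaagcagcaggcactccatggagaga
Apcs, chr1:172895005-172895304, minus strand: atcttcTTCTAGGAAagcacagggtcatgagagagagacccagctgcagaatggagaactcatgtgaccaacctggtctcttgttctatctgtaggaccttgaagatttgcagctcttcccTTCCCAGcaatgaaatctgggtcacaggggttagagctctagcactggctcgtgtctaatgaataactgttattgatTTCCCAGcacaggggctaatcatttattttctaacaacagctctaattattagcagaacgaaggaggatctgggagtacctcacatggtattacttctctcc

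The C/EBP core was found in 7 of the 8 windows, those of Saa1, Saa2, Saa3, Saa4, Orm2, Orm3 and Lcn2, compared with 10.8% of all 32851 windows of this length. The windows of Saa1 and Saa2 were 95.3% identical and both held TTGCACAA, which begins at position -182 from the start site in Saa1 and -183 in Saa2. Those of Orm2 and Orm3 were 86.6% identical, with TTGCGCAA beginning at -120 in Orm2 and TTGCACAA at -121 in Orm3. The STAT core occurred only in the window of Apcs among the 8 (8.3% of all windows) and the interleukin-6 core in those of Orm3 and Apcs (11.1% of all windows). The NF-kB core was searched in a strict form only, which was in 0 of the 8 windows and in 1.63% of all windows. Looser forms of this core were not searched, so a window without a match may still hold an NF-kB site. The matches to all these cores are descriptions of letters in short windows, and binding was not measured.

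Library totals lay between 20085976 and 22495408 estimated counts. In the text, levels of a gene between mice are given as CPM, counts scaled to the TMM-normalized library size, and levels of different genes as TPM, which accounts for transcript length. A gene was called when the adjusted p was under 0.05 and the absolute log2 fold change above 1 (edgeR's quasi-likelihood test on all 9 mice with Benjamini-Hochberg adjustment over 13619 genes). Each ± gives the SD over 3 mice, and each standard error (SE) is that of the log2 fold change. The labelled tissue was checked against 10 hepatocyte markers, whose sum was 140455 to 166706 CPM in the Control livers, 84790 to 116044 CPM in the NASH livers and 98157 to 128251 CPM in the trained ones. In whole liver, a change in the number of cells of a type and a change in RNA per cell cannot be told apart.

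In NASH liver all 10 acute phase genes rose compared with Control, and for each of them every NASH mouse was above every Control mouse. Of all genes tested, 15.3% were called higher in this comparison and 27.4% had groups that did not overlap in that direction. Log2 fold changes ran from 1.26 for Hp to 6.55 for Lcn2, with a median of 3.66 beside 0.01 over all genes tested. The sizes fell into a set of 6 genes that rose 10.8-fold or more (Lcn2, Saa2, Saa1, Orm2, Orm3 and Saa3) and a set of 4 with a rise of 2.40-fold to 2.84-fold (Apcs, Saa4, Orm1 and Hp).

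**Figure D1:**
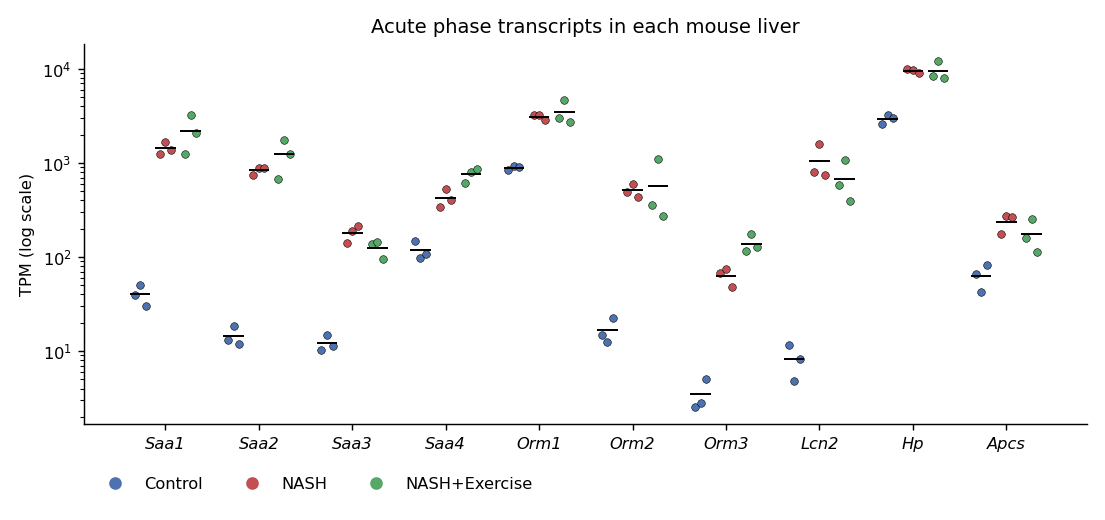
TPM of each of the 10 genes in each mouse on a log axis, with points for mice (3 per group) and black lines for group means. In every gene the Control points lie below those of both Ath diet groups, and Hp is the highest gene in all 9 mice.

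Among the Saa genes, Saa1 and Saa2 encode the inducible SAA proteins of plasma. Saa1 was at 15.8, 23.5 and 10.7 CPM in Control mice 3, 4 and 29 and at 376, 460 and 426 CPM in NASH mice 5, 19 and 20. The NASH mice differed little from each other, and the lowest of them was far above the highest Control mouse. The log2 fold change was 4.66 (SE 0.43, adjusted p = 4.33e-05 by edgeR's quasi-likelihood test). Saa2 was at 5.10, 8.51 and 4.13 CPM in Control and at 222, 243 and 273 CPM in NASH, a log2 fold change of 5.38 (SE 0.44, adjusted p = 2.42e-05 by edgeR's quasi-likelihood test). Control mouse 4 was the highest Control mouse for both genes. Counted together, Saa1 and Saa2 rose by a log2 fold change of 4.88 (SE 0.43), so the rise did not rest on the split of reads between them.

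Saa3 encodes an SAA protein that macrophages and other cells outside the hepatocyte lineage also make. It was at 3.49, 5.89 and 3.42 CPM in Control and at 36.7, 44.2 and 57.3 CPM in NASH. The log2 fold change was 3.43 (SE 0.25, adjusted p = 8.61e-06 by edgeR's quasi-likelihood test). Saa4, the constitutive member of the family, was at 200.02, 156 and 131 CPM in Control and at 355, 501 and 435 CPM in NASH. It also rose, by a log2 fold change of 1.41 (SE 0.23, adjusted p = 0.00101 by edgeR's quasi-likelihood test), with no overlap between the groups. Within the family the order of levels turned over. Saa4 made up 63.6% ± 8.67 of the summed Saa TPM in Control and 14.7% ± 1.25 in NASH, while the summed Saa TPM went from 162 to 210 in Control mice to 2465 to 3290 in NASH mice. The shares did not overlap between the groups (two-sided exact permutation p = 0.1, the smallest that 3 against 3 mice can give).

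Of the orosomucoids, Orm1 held nearly all of the Orm transcripts in Control. It was at 429, 553 and 402 CPM in Control and at 1269, 1136 and 1131 CPM in NASH. The rise was close to 2.55-fold, a log2 fold change of 1.35 (SE 0.22, adjusted p = 0.000877 by edgeR's quasi-likelihood test). Orm2 was at 7.41, 7.34 and 10.1 CPM in Control and at 191, 209 and 174 CPM in NASH, a log2 fold change of 4.53 (SE 0.52, adjusted p = 0.000185 by edgeR's quasi-likelihood test). Orm3 was at 1.93, 1.89 and 2.65 CPM in Control and at 34.0, 35.8 and 26.7 CPM in NASH, a log2 fold change of 3.89 (SE 0.28, adjusted p = 8.17e-06 by edgeR's quasi-likelihood test). The low copies rose by a larger factor than the abundant one. The sum of the 3 genes followed Orm1, with a log2 fold change of 1.57 (SE 0.24, adjusted p = 0.000639 by edgeR's quasi-likelihood test).

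Lcn2, which hepatocytes and neutrophils both make, was at 6.39, 3.17 and 4.03 CPM in Control. In NASH it was at 340, 609 and 329 CPM, with NASH mouse 19 well above the other two. Its log2 fold change of 6.55 (SE 0.50, adjusted p = 1.66e-05 by edgeR's quasi-likelihood test) corresponded to a 93.9-fold rise, and it lay between 6.18 and 6.88 when any 1 mouse was left out. By TPM, Lcn2 went from rank 5114 to 6911 of 17846 genes in Control mice to rank 74 to 159 in NASH mice.

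Hp was the most abundant of the 10 genes in every liver. It was at 2287, 3363 and 2371 CPM in Control and at 6808, 6027 and 6391 CPM in NASH. This was a 2.40-fold rise, a log2 fold change of 1.26 (SE 0.23, adjusted p = 0.00161 by edgeR's quasi-likelihood test), and it took Hp from rank 41 to 53 by TPM to rank 11 or 12. Apcs was at 42.1, 32.2 and 47.2 CPM in Control and at 87.8, 122 and 136 CPM in NASH, a log2 fold change of 1.51 (SE 0.28, adjusted p = 0.00258 by edgeR's quasi-likelihood test). When the test asked for a change of more than 2-fold (glmTreat), 6 of the 10 genes were called, without Saa4, Orm1, Hp and Apcs. That test called 1155 of all 13619 genes higher.

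**Figure D2:**
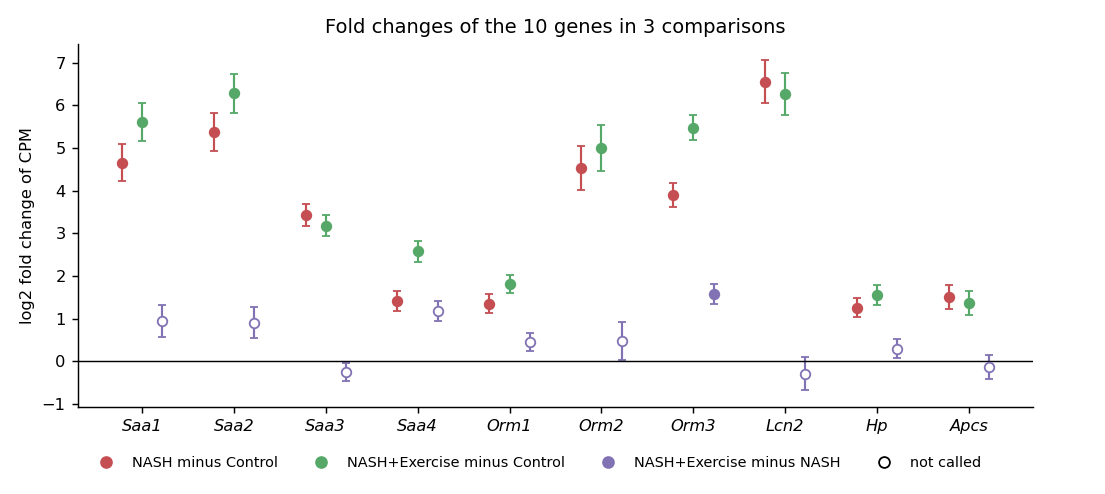
Log2 fold change (points) with its SE (bars) for each gene in 3 comparisons, from the edgeR fit of 9 mice, with filled points for called genes. All 10 genes are filled in both comparisons with Control, and only Orm3 is filled in NASH+Exercise minus NASH.

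In trained NASH mice the acute phase genes stayed above Control, and 9 of the 10 did not pass the test against sedentary NASH mice. Orm3 was the 1 gene of 10 called higher in NASH+Exercise than in NASH, where 0.103% of all genes tested were called higher. None of the 10 was called lower, where the background was 0.0367%, and none was lower at an unadjusted p under 0.05, where 10.7% of all genes were. The fold change was positive for 7 genes, where 45.1% of all genes had a positive value, and negative for Saa3, Lcn2 and Apcs, with a median log2 value of 0.47 beside -0.03 over all genes tested. At an unadjusted p under 0.05, 4 genes were higher (Saa1, Saa2, Saa4 and Orm3), compared with 4.6% of all genes. DESeq2 on all 9 mice called Orm3 and Saa4 higher and none of the 10 lower, where it called 0.501% of all genes with an adjusted p higher and 0.84% lower.

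Orm3 was at 62.1, 120 and 107 CPM in NASH+Exercise mice 8, 18 and 22, and the lowest of these was above the highest NASH mouse at 35.8 CPM. The log2 fold change was 1.58 (SE 0.23, adjusted p = 0.0405 by edgeR's quasi-likelihood test). The call was close to the threshold. It was made in 9 of 23 alternative analyses, and with 1 mouse left out it was made only without Control mouse 29 or NASH+Exercise mouse 8, although the log2 fold change stayed between 1.40 and 1.82. Over all genes tested, edgeR called 0 to 28 higher with 1 mouse left out and 14 with all 9 mice. The counts of the 3 Orm genes together, which stand among the 23 alternatives for Orm3, gave 0.50 (SE 0.24, adjusted p = 0.347 by edgeR's quasi-likelihood test). Orm3 made up 2.29% ± 0.294 of these counts in NASH and 4.97% ± 1.24 in NASH+Exercise, so the sum cannot decide on Orm3 alone. The length that the deposited values imply for Orm3 also differed between libraries, from 863 to 1148 bases in Control mice, 991 to 1049 in NASH mice and 990.5 to 1242 in trained mice, whereas for Orm1 it stayed at 758 to 760. In TPM, where length is divided out, Orm3 was at 67.1, 73.8 and 48.3 in NASH and 115, 176 and 126 in NASH+Exercise. The TPM groups did not overlap either, but limma on log2(TPM + 1) gave a log2 difference of 1.13 and an adjusted p of 0.0514.

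Saa4 was the other gene whose groups did not overlap, so 2 of 10 genes lay fully above NASH compared with 9.16% of all genes tested. It was at 691, 1023 and 1197 CPM in NASH+Exercise, against at most 501 CPM in NASH. Its log2 fold change of 1.17 (SE 0.23) had an adjusted p of 0.102 by edgeR's quasi-likelihood test and was not called, while both DESeq2 fits and the fit without NASH+Exercise mouse 8 called it. Saa1 was at 403, 1183 and 846 CPM and Saa2 at 219, 647 and 513 CPM in NASH+Exercise. For both genes mouse 8 lay within or below the NASH range, and mice 18 and 22 lay above it. The log2 fold changes were 0.95 (SE 0.37) for Saa1 and 0.90 (SE 0.36) for Saa2, with adjusted p of 0.271 and 0.279 by edgeR's quasi-likelihood test, and the fold changes were 0.57 and 0.58 without mouse 18. DESeq2 on the 6 mice gave adjusted p of 0.0269 for Saa1 and 0.0429 for Saa2, with log2 fold changes of 0.998 and 0.95 that stayed under the fold threshold. Saa3 did not share this pattern, with 38.1, 45.1 and 32.8 CPM and a log2 fold change of -0.25 (SE 0.22, adjusted p = 0.624 by edgeR's quasi-likelihood test).

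For Hp and Orm1, as for Saa1, mouse 8 lay within the NASH range and mice 18 and 22 above it. Hp was at 6091, 10043 and 7389 CPM and Orm1 at 1252, 2183 and 1428 CPM, with log2 fold changes of 0.29 (SE 0.22) and 0.46 (SE 0.22) that were not called. Orm2 was at 146 and 140 CPM in mice 8 and 22, both below the NASH mice, and at 512 CPM in mouse 18. Its log2 fold change of 0.48 (SE 0.44) became -0.42 without mouse 18. Lcn2 was at 264, 557 and 222 CPM and Apcs at 84.4, 155 and 75.0 CPM, with log2 fold changes of -0.29 (SE 0.38) and -0.14 (SE 0.28). NASH+Exercise mouse 18 was the highest of its group for 9 of the 10 genes, all but Saa4. The coefficient of variation of Orm2 over the group was 80.2%, against 9.26% in NASH, and that of Hp was 25.7% against 6.10%. Scaling mattered as well, since with library size alone the median of all genes was -0.23 in this comparison in place of -0.03, and on the TPM scale Hp and Orm2 were level or slightly lower (log2 differences of -0.04 and -0.10).

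**Figure D3:**
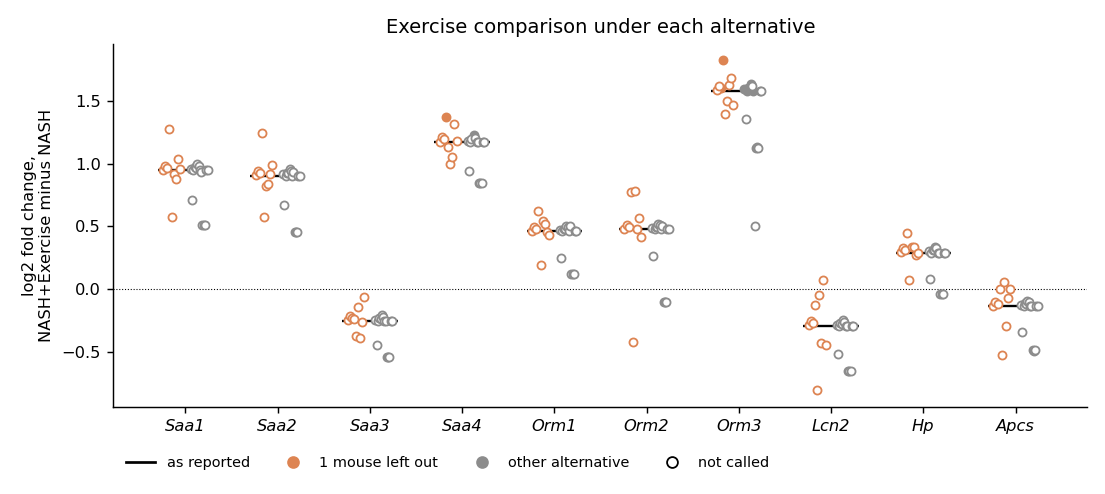
Log2 fold change of NASH+Exercise minus NASH for each gene as reported (black line), with 1 mouse left out (orange) and under the other alternatives (grey), with filled points where the gene was called. Saa1, Saa2, Saa4, Orm1 and Orm3 stay above 0 and Saa3 below 0 throughout, while Orm2, Lcn2, Hp and Apcs have points on both sides of 0. For Saa1, Saa2 and the Orm genes, the grey points include the fit with copies summed, whose value is plotted under each copy.

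Against Control, all 10 genes were called higher in NASH+Exercise and none of the groups overlapped, where 10.4% of all genes were called higher and 21.5% did not overlap in that direction. This comparison shares its Control mice with that of NASH, so both are given side by side. Log2 fold changes were 6.28 (SE 0.46) for Saa2, 6.26 (SE 0.49) for Lcn2, 5.61 (SE 0.45) for Saa1, 5.47 (SE 0.29) for Orm3 and 5.001 (SE 0.53) for Orm2. They were 3.18 (SE 0.25) for Saa3, 2.58 (SE 0.24) for Saa4, 1.81 (SE 0.22) for Orm1, 1.55 (SE 0.23) for Hp and 1.37 (SE 0.28) for Apcs. The adjusted p ran from 6.29e-06 for Orm3 to 0.00600 for Apcs by edgeR's quasi-likelihood test. Without NASH+Exercise mouse 18 the value of Apcs was 0.97, below the fold threshold.

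The order of the 10 genes by TPM differed between Control and the Ath diet groups. In Control, Hp at 2927 ± 333 TPM was followed by Orm1 at 893 ± 42.6 and Saa4 at 118 ± 25.8, each clear of the next. Apcs and Saa1 overlapped, at 63.4 ± 19.9 and 40.1 ± 10.3 TPM. Orm2, Saa2, Saa3, Lcn2 and Orm3 followed, from 16.6 ± 5.35 down to 3.46 ± 1.39 TPM, and each overlapped its neighbour. In NASH, Hp at 9587 ± 460 and Orm1 at 3111 ± 244 TPM still led. Saa1 was next at 1431 ± 226 TPM, overlapping Lcn2 at 1040 ± 465, which overlapped Saa2 at 837 ± 85.5. Orm2 at 510 ± 81.8 and Saa4 at 425 ± 96.4 TPM overlapped, as did Apcs at 239 ± 53.0 and Saa3 at 182 ± 37.0, and Orm3 was last at 63.1 ± 13.2. In NASH+Exercise only Hp above Orm1, and Orm2 above Apcs, were clear of their lower neighbour. Together the 10 genes held 0.372% to 0.440% of all TPM in Control mice, 1.63% to 1.88% in NASH mice and 1.52% to 2.52% in NASH+Exercise mice. Hp was 71.3% ± 2.14 of that sum in Control and 55.1% ± 3.03 in NASH (no overlap, two-sided exact permutation p = 0.1, the smallest possible).

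The copies were also compared by their shares. Saa2 made up 26.7% ± 1.66 of the Saa1 and Saa2 TPM in Control mice, 37.0% ± 2.32 in NASH mice and 36.2% ± 1.35 in trained mice. Both Ath diet groups lay above Control without overlap, and they overlapped each other (two-sided exact permutation p = 0.7 between them). Orm2 made up 1.82% ± 0.580 of the Orm TPM in Control mice, 13.8% ± 1.32 in NASH mice and 12.4% ± 5.34 in trained mice. For Orm3 the shares were 0.378% ± 0.147, 1.70% ± 0.222 and 3.43% ± 0.524, and no groups overlapped (two-sided exact permutation p = 0.1 for each pair, the smallest possible). Orm2 outnumbered Orm3 by 5.60 to 6.50 counts to 1 in NASH mice and by 1.303 to 4.27 to 1 in NASH+Exercise mice. All these shares rest on the estimated split of reads between the copies.

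**Figure D4:**
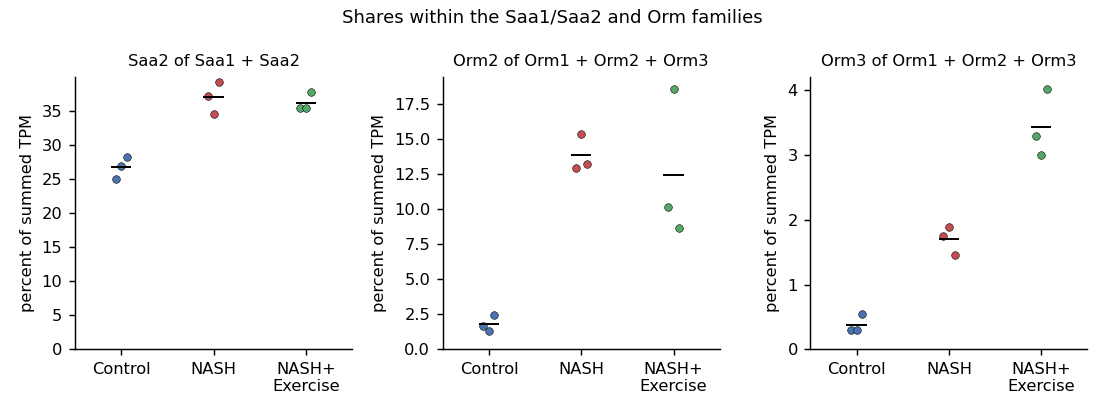
Percent of summed TPM held by Saa2 among Saa1 and Saa2, and by Orm2 and Orm3 among the 3 Orm genes, with a point per mouse (3 per group) and black lines for means. Saa2 and Orm2 are higher in both Ath diet groups than in Control, and Orm3 is highest in NASH+Exercise at 2.99% to 4.01%.

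The signals that drive the acute phase response were examined by lists of the pathway, whose counts stand beside the 15.3% of all genes called higher and 3.03% called lower in NASH. Of 12 cytokines, 6 were tested and 4 were called higher in NASH. Il1b was at 1.46 ± 1.39 CPM in Control and 6.79 ± 0.609 CPM in NASH, a log2 fold change of 2.201 (SE 0.52, adjusted p = 0.0091 by edgeR's quasi-likelihood test). Tnf had 0 to 3 counts in Control mice and 75 to 87 in NASH mice, so it was at least 20.8-fold higher against a floor of 3 counts per Control library. Il6 was too low to test, with at most 3 counts in any mouse. Of 13 genes in the list of cytokine receptors, which also holds the interleukin-1 receptor antagonist Il1rn, 5 were called higher. Among them were the interleukin-1 receptor Il1r1 with a log2 fold change of 2.61 (SE 0.29) and Il1rn with 2.65 (SE 0.23). The oncostatin M receptor Osmr was called with 2.16 (SE 0.23). The interleukin-6 receptor Il6ra (0.60, SE 0.26) and its partner Il6st, which encodes gp130 (0.44, SE 0.17), were not called. Of 23 signalling genes, 6 were called higher and 0 lower, and over the alternatives 4 to 11 were called higher and 0 to 2 lower. These included Relb and Nfkb2, subunits of NF-kB, with log2 fold changes of 2.33 (SE 0.17) and 1.84 (SE 0.15), and Socs3, the feedback inhibitor of STAT3 signalling, with 1.27 (SE 0.42). The transcripts of Stat3 itself (0.48, SE 0.16), Cebpd (0.60, SE 0.37) and Cebpb (-0.40, SE 0.33) were not called, and that of Cebpb was at 0.00 on the TPM scale.

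Further acute phase genes were read from lists of positive and negative reactants against the same background. Of 30 further positive acute phase genes, 29 were tested, 7 were called higher in NASH and 2 lower, with a median log2 fold change of 0.45. Hpx, the haem-binding hemopexin, rose with a log2 fold change of 1.41 (SE 0.25), close to that of Hp. Cd14, a co-receptor for endotoxin, rose with 3.63 (SE 0.23), and Steap4, a metalloreductase, with 2.83 (SE 0.21). Crp (0.22, SE 0.16), Fga (0.37, SE 0.21) and Lbp (0.59, SE 0.20) were not called, and Serpina3n missed the fold threshold at 0.997 (SE 0.23). Hamp, which encodes the iron hormone hepcidin, went the other way, from 867 ± 111 to 375 ± 135 CPM (log2 fold change -1.21, SE 0.30), as did Serpina3k (-1.19, SE 0.23). Of 13 negative acute phase genes, whose transcripts fall in the acute phase, 1 was called lower, the paraoxonase Pon1 (-1.34, SE 0.15), and over the alternatives 0 to 5 were called lower and 0 to 1 higher. Alb (-0.52, SE 0.22) and Ttr (-0.70, SE 0.23) were not called. Of 21 receptors and partners tested, 12 were called higher, with Tlr2, which senses SAA, at 3.97 (SE 0.19), Fpr2, an SAA receptor of myeloid cells, at 3.33 (SE 0.44) and the haem-degrading Hmox1 at 1.46 (SE 0.19). The haptoglobin receptor Cd163 (-0.56, SE 0.81), the SAA-binding Scarb1 (0.67, SE 0.16) and the lipocalin-2 receptor Slc22a17 (0.71, SE 0.35) were not called. The log2 fold changes in this and the previous paragraph are those of CPM in NASH minus Control, and every gene described as called had an adjusted p of at most 0.0395 by edgeR's quasi-likelihood test.

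In NASH+Exercise minus NASH none of the 105 tested genes of these 6 lists was called by edgeR. At an unadjusted p under 0.05, 11 were higher and 10 lower, where 4.6% of all genes were higher and 10.7% lower. The smallest adjusted p was 0.0415 by edgeR's quasi-likelihood test, in a cytokine receptor whose change stayed within the fold threshold. DESeq2 on all 9 mice called 2 of the 105, and DESeq2 on the 6 mice called Bcl3 and Lrp2. Against Control, NASH+Exercise had 35 of the 105 called higher and 1 lower (3.07% of all genes were called lower), compared with 34 and 3 in NASH. Steap4 was at 39.5 ± 6.95 CPM in Control mice, 280 ± 10.6 in NASH mice and 502 ± 129 in trained mice. Socs3 was at 13.8 ± 4.15, 33.3 ± 1.89 and 63.0 ± 40.3 CPM. Tnf, in contrast, was at 3.34 ± 0.398 CPM in NASH mice and 1.96 ± 0.698 in trained mice. Cd14 was at 28.4 ± 2.54 and 19.3 ± 5.55 CPM. Of the 105 genes, 56 had a positive and 49 a negative fold change in NASH+Exercise minus NASH. All 6 tested cytokines and 17 of 21 receptors and partners were negative. Of the further acute phase genes, 22 of 29 positive and 12 of 13 negative reactants had a positive fold change.

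Several marker lists of other liver cells were higher in NASH, as the 10 genes were, but lower in the trained mice than in NASH. The summed level of 12 neutrophil markers was 11.3 to 16.3 CPM in Control mice, 57.3 to 66.3 CPM in NASH mice and 39.1 to 56.6 CPM in trained mice, and 10 of the 12 were called higher in NASH. Ngp, a neutrophil granule gene, was at least 50.5-fold higher in NASH than a floor of 3 counts per Control library, S100a8 rose with a log2 fold change of 4.49 (SE 0.37), and Ly6g was not called (0.62, SE 0.23). Camp had no counts in any Control mouse. The sum of 13 macrophage markers was 126 to 221, 1122 to 1273 and 888 to 1063 CPM, and 12 of the 13 were called higher in NASH, among them Cd68 at 3.35 (SE 0.16), Adgre1 at 2.87 (SE 0.29) and the Kupffer cell gene Clec4f at 1.48 (SE 0.28). Sums were also higher in NASH without overlap for 9 stellate cell markers (153 to 277 CPM in Control mice, 432 to 606 in NASH mice and 266 to 375 in trained mice) and 6 T and NK cell markers (3.06 to 4.44, 15.4 to 19.2 and 10.8 to 12.8 CPM). Of single genes, 4 of 9 stellate cell markers and 6 of 6 T and NK cell markers were called higher in NASH, where 15.3% of all genes were. For all 4 of these lists the sums of the trained mice lay below those of the NASH mice without overlap, although edgeR called none of their genes in that comparison. No share over all genes stands beside the non-overlap of these sums. At an unadjusted p under 0.05, 1 of 12 neutrophil and 2 of 13 macrophage markers were lower in trained mice. So were 4 of 9 stellate cell and 3 of 6 T and NK cell markers. Over all genes tested the share was 10.7%, and the neutrophil and macrophage counts were near it. DESeq2 on all 9 mice called 3 of these markers lower, all stellate cell collagens. It called 0.84% of all genes with an adjusted p lower. The sums of cholangiocyte, endothelial and B cell markers overlapped between Control and NASH. Even so, 3 of 5 tested cholangiocyte markers and 1 of 5 endothelial markers were called higher in NASH, and 0 of 4 B cell markers. All 5 tested cholangiocyte markers had negative fold changes in NASH+Exercise minus NASH, with a median of -1.48. Of these 5, edgeR called 0 there, and DESeq2 on all 9 mice called 1 cholangiocyte marker lower. All 10 hepatocyte markers had negative fold changes in NASH, with a median of -0.61 and 1 call. Among these markers, Alb, Ttr and Apoa1 also stand in the list of negative acute phase genes. Adipocyte markers were too low for any to be tested, with Adipoq and Plin1 at 0 in both Ath diet groups. Lcn2 was at 329 to 609 CPM in NASH. CPM does not account for transcript length, so the level of Lcn2 is not compared with the marker sums. What these cells contributed to Lcn2 or Saa3 was not tested.

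**Figure D5:**
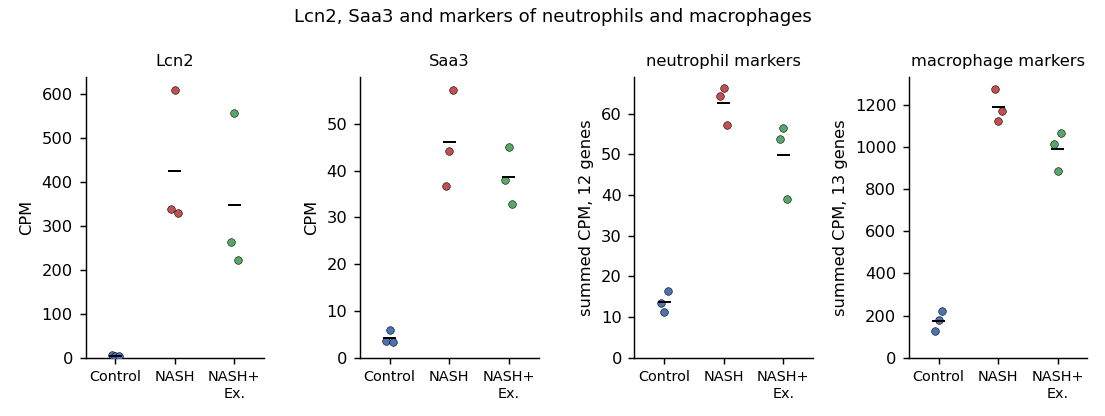
CPM of Lcn2 and Saa3 and summed CPM of 12 neutrophil and 13 macrophage markers, with a point per mouse (3 per group) and black lines for means. All 4 quantities are lowest in Control. In NASH, Lcn2 lies at 329 to 609 CPM and the neutrophil sum at 57.3 to 66.3 CPM. CPM does not account for transcript length, so levels are compared within a panel only.

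Over the 9 livers the log2 CPM of the 10 genes moved together, given as a description over points that share their 3 groups. Pearson's r was 0.999 for Saa1 with Saa2, 0.994 for Orm1 with Hp and 0.983 for Orm2 with Lcn2, and it was lowest for Saa4 with Apcs at 0.743. Outside the 10, the gene most like each was found by the same measure over the same 9 libraries. Steap4 was most like Orm3 (r = 0.997), Ier5 most like Orm2 (0.994), Hpx most like Hp (0.993), Ly6e most like Saa3 (0.992), Map7d1 most like Orm1 (0.991), Ifi27l2b most like Lcn2 (0.991), Cyb561 most like Saa1 (0.991), Lrrc75a most like Saa2 (0.990), Cyp21a1 most like Saa4 (0.978) and Dll1 most like Apcs (0.976). Ngp was the next after Ifi27l2b for Lcn2 (0.989). Cyp21a1 followed Saa4 across all groups, with group means of 2.39, 10.6 and 27.3 CPM, in the order Control, NASH, NASH+Exercise. Cxcl1, a neutrophil chemoattractant also among the most like Orm3, had means of 0.961, 35.7 and 128 CPM.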

How the data were processed

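Liver mRNA was sequenced from 9 mice, 3 per group, 1 library each. Per the submitters' processing notes, HISAT2 2.1.0, Bowtie2 2.2.5 and RSEM 1.2.8 were used with GRCm38.p6. The authors deposited, per Entrez gene and library, an estimated count (not normalized, 29.0% to 32.8% of values not whole), FPKM and TPM. The deposited FPKM served only to derive an effective length. Estimated counts were rounded.

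Genes were tested with edgeR 4.0.16 in R 4.3.3 (filterByExpr with a minimum count of 10, TMM, a robust quasi-likelihood model of the 9 libraries containing only group, biological coefficient of variation 0.192), after a trial on simulated data. SE was derived from the F statistic. The study's methods name DESeq2, used here as an alternative (1.42.0), as was limma 3.58.1 on log2(TPM + 1) or log2(TPM + 0.1). Further alternatives left out 1 mouse at a time, changed scaling or filter, fitted 6 mice or summed near-identical copies. Symbols came from RefSeq (17728 genes) and GENCODE (13 genes), coordinates from RefSeq and spliced transcripts from GENCODE. Symbols were not assigned to 105 genes.

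The 10 genes, the pathway and marker lists and the named genes were chosen with earlier results of these data known. Named beside the 10 were a preset set of pathway genes, up to 3 called genes per list, comparison and direction with the largest change and no overlap, and the 3 genes most alike by Pearson's r. No mapping beyond the labels was used. Nothing states that mice were housed apart, and counting floors cover counting error only. Both the number of mice and the depth limit the precision.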

Additional observations from a re-analysis of the deposited data

How the results depend on the processing

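In NASH minus Control the 10 genes were called in every alternative but the test against 2-fold, which called 6. Over all genes, 1155 (the test against 2-fold) to 2886 (adjusted p alone) were called higher. In NASH+Exercise minus Control 8 to 10 of the 10 genes were called, where 630 to 2118 of all genes were called higher. In NASH+Exercise minus NASH, where 1 gene (Orm3) was called, the count was 0 with library size alone and with edgeR on the 6 mice. It was also 0 with limma on TPM (3 settings), in the test against 2-fold and with copies summed, where Orm3 was not tested alone. It was 2 (Orm3 and Saa4) with DESeq2 on 9 or 6 mice. Over all genes, 10 were called higher with library size alone and 13 with edgeR on the 6 mice or with copies summed. Limma called 14 to 23 higher, the test against 2-fold 0, and DESeq2 on 9 and 6 mice 65 and 78. With 1 mouse left out the count among the 10 genes ranged from 0 to 2. It was 2 without NASH+Exercise mouse 8, 1 without Control mouse 29 and 0 without Control mouse 3 or 4, NASH mouse 5, 19 or 20, or NASH+Exercise mouse 18 or 22. Over all genes, those called higher numbered 28 without NASH+Exercise mouse 8 and 14 without Control mouse 29 or with all 9 mice. They numbered 8 without Control mouse 4 and 1 without NASH mouse 19. They numbered 0 without Control mouse 3, NASH mouse 5 or 20, or NASH+Exercise mouse 18 or 22. The adjusted p of Orm3 was 0.0851 with library size alone and 0.066 with edgeR on the 6 mice.

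Directions reversed in the same comparison for Orm2 (log2 difference of -0.10 in the 3 limma fits, -0.42 without NASH+Exercise mouse 18, range -0.42 to 0.78 with 1 mouse left out), Hp (-0.039 in the 3 limma fits), Lcn2 (0.076 without NASH mouse 19, range -0.81 to 0.076 with 1 mouse left out) and Apcs (5.94e-05 without NASH+Exercise mouse 8 and 0.056 without mouse 22, range -0.53 to 0.056). Outside the 10, Cebpb reversed in NASH minus Control (0.0037 with log2(TPM + 1), with and without a filter, and 0.0036 with log2(TPM + 0.1)) and in NASH+Exercise minus Control (-0.44 without NASH+Exercise mouse 22), as did Slc22a17 (0.14 without Control mouse 29). The causes were not tested. Library size alone moved the median of all genes to 0.36 in NASH minus Control and 0.15 in NASH+Exercise minus Control. Among the pathway lists the called counts in NASH minus Control ran from 3 to 12 higher for the further positive acute phase genes from 4 to 11 higher for the signalling genes, from 1 to 7 higher for the cytokines (4 as reported), from 0 to 5 lower for the negative acute phase genes (1 as reported) and from 0 to 4 lower for the hepatocyte markers (1 as reported). No paired analysis was possible because the groups share no replicate numbers.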
